A study of Arabidopsis thaliana with 4 samples.

Results

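The nuclear genes of the photosynthetic light reactions were followed through the development of the Arabidopsis thaliana fruit, the silique. They were chosen by their gene codes from a list of 43 genes, namely 15 antenna genes of photosystem II (LHCB), 6 antenna genes of photosystem I (LHCA), 12 subunit genes of photosystem I (PSA) and 10 subunit genes of photosystem II (PSB). Of these, 38 had a value in the deposited tables, at 37 distinct loci of 29971. Whole siliques of the wild-type accession Col-0, grown under long days, were collected at 0 to 5 days after the flower opened (stage 1), 6 to 10 days (stage 2), 11 to 15 days (stage 3) and 16 to 20 days (stage 4). Each stage was 1 library, so no difference below has a replicate error or a p-value, and the values describe these 4 libraries. The values are FPKM, fragments scaled to the length of the transcript and the size of the library.

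Photosystem II draws electrons from water with the help of extrinsic proteins on the inner side of the thylakoid membrane, and photosystem I passes them on to ferredoxin. Around each photosystem sit chlorophyll-binding antenna proteins, which collect light. The reaction-centre proteins themselves are encoded in the plastid and were not analysed here, while the antennae and many smaller subunits are made from nuclear genes and imported. Silique walls and young embryos of Arabidopsis are green and hold chloroplasts, and both lose chlorophyll as the fruit matures.

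The low values of the tables fell on steps that correspond to 65.9, 102.4, 68.0 and 59.1 M fragments (M for mega) in stages 1 to 4, or to relative depths if the libraries had been scaled to each other. Pod wall markers (FUL, SHP1 and IND, 3 of 4 listed) summed to between 95.8 and 127 FPKM in each library. Embryo markers (LEC1, FUS3 and ABI3) summed to 0.666 FPKM in stage 1 and to 109, 217 and 203 FPKM in the later stages. Within these later sums LEC1 fell (78.6, 31.6 and 8.00 FPKM) while FUS3 and ABI3 rose. Endosperm markers (AGL62, ZOU and MYB118) summed to 5.49, 57.5, 55.2 and 19.1 FPKM, and seed coat markers (BAN, TTG2 and GL2) to 87.1, 415, 74.6 and 35.2 FPKM. AGL62 changed little, between 5.21 and 7.89 FPKM. BAN alone stood at 77.3, 360, 42.4 and 15.3 FPKM, TTG2 at 4.05, 11.4, 6.10 and 3.98 FPKM, and GL2 at 5.72, 43.6, 26.1 and 15.9 FPKM. Pollen markers (AGP6, AGP11 and AT5G45880) summed to 355 FPKM in stage 1 and at most to 12.7 FPKM later. The floral organ markers went opposite ways after stage 1, AP3 at 33.4, 89.3, 91.8 and 49.4 FPKM and PI at 28.7, 3.11, 1.78 and 4.55 FPKM. None of the 17 markers with a row was listed at 0. The part that this shift in tissue has in the results below was not tested, and in whole fruits fewer green cells and less of an RNA per cell cannot be told apart.

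Among the 36 loci above 0 in every library, the antenna and photosystem genes were abundant in young fruits and, in the values as deposited, lowest in the oldest. With libraries scaled to equal FPKM sums the median member was higher in stage 4 than in stage 1 by 0.58 on the log2 scale, beside 1.92 for all loci. In these sums 1 short locus held 78.3% in stage 1. The median member differed by -1.53 with only loci of at least 300 bases in the sums. It differed by -1.67 with the median ratio over all loci and by -1.49 with reference genes. The levels that follow are as deposited. Their median levels in stages 1 to 4 were 985, 947, 521 and 265 FPKM. Of these loci, 22 had their highest value in stage 1, 13 in stage 2 and 1 in stage 4, while the lowest fell in stage 4 for 32. Among the 100 most abundant loci of a library there were 13, 25, 7 and 1 member loci in stages 1 to 4, and such ranks within a library do not depend on how the libraries were scaled to each other.

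**Figure D1:**
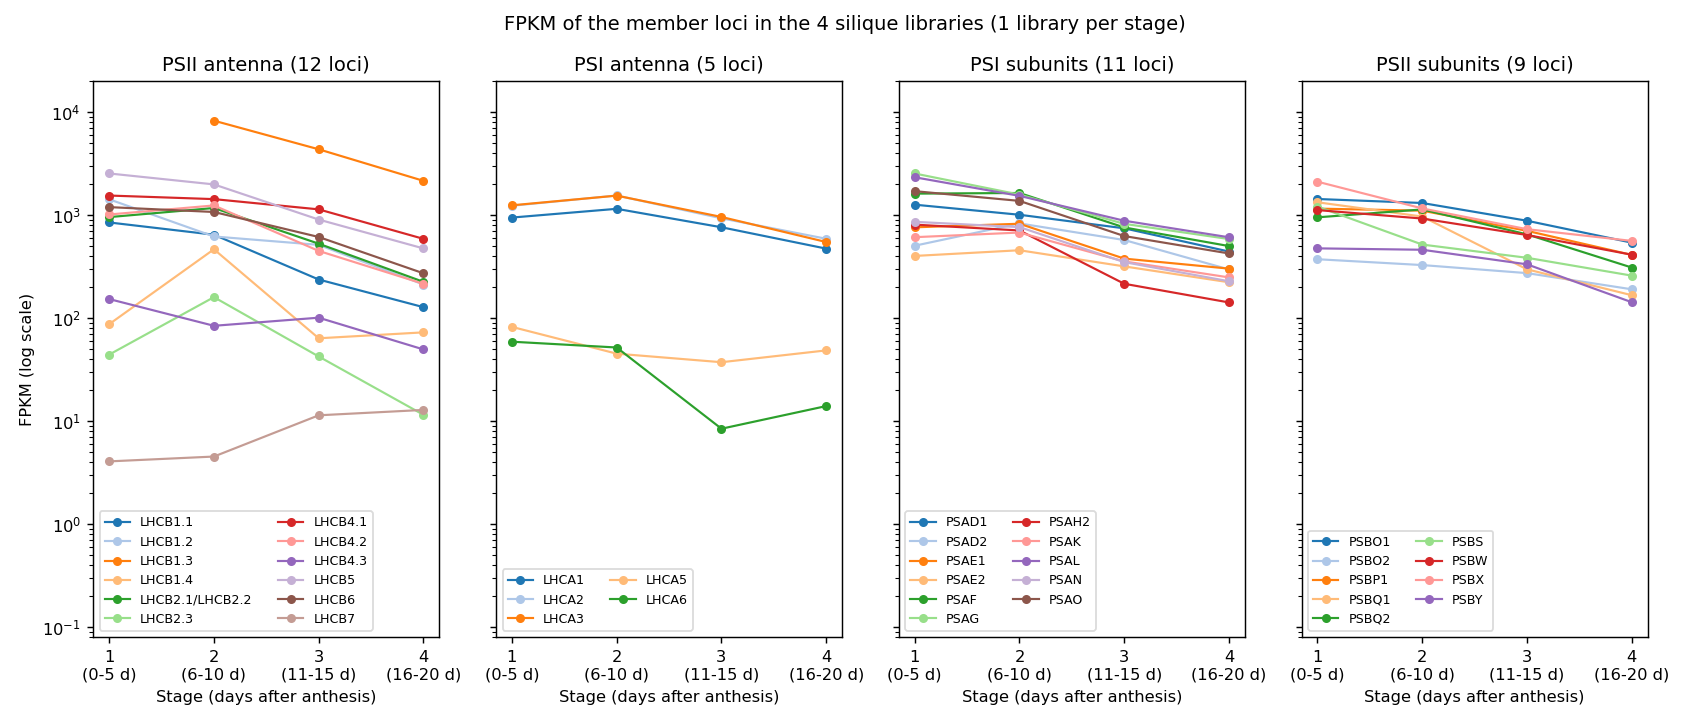
FPKM (log axis) of the 37 member loci in the 4 libraries, 1 point per library, in 4 panels for the PSII antenna, the PSI antenna, the PSI subunits and the PSII subunits. Of 36 lines that span all stages, 32 are lowest in stage 4 in the values as deposited, LHCB1.3 starts at stage 2 because it is listed at 0 in stage 1, and LHCB7 is the line at the bottom that is highest in stage 4.

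The genes for the major, trimeric light-harvesting complex of photosystem II (LHCB1 and LHCB2) held the highest value of the group. LHCB1.3 (AT1G29930) was listed at 0 in stage 1 and stood at 8249, 4352 and 2150 FPKM in stages 2 to 4. With these values it was the third most abundant locus of the stage 2 library. A value of exactly 0 beside such levels in the other stages can be a failed estimate, so LHCB1.3 was not compared with stage 1.

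LHCB1.3 lies on chromosome 1 beside its near-identical copies LHCB1.2 (AT1G29910) and LHCB1.1 (AT1G29920). In the RefSeq annotation of TAIR10.1, LHCB1.2 occupies 10472280 to 10473502 and LHCB1.1 occupies 10474656 to 10475969, both on the minus strand, and LHCB1.3 occupies 10477885 to 10479114 on the plus strand. Their coding sequences of 804 bases were 95.6% to 96.4% identical, and 47 positions were not alike in all 3. The first 120 coding bases of the 3 copies are given as an example of where the copies differ. They lie at chr1:10475773-10475892 (minus strand), chr1:10473127-10473246 (minus strand) and chr1:10478071-10478190 (plus strand), and capitals mark the 9 positions in this stretch at which the 3 are not all alike:
LHCB1.1: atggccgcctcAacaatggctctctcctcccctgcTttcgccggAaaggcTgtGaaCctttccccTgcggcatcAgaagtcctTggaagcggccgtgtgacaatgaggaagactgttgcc
LHCB1.2: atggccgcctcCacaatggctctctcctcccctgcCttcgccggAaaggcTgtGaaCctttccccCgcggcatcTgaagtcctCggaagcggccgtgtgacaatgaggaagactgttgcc
LHCB1.3: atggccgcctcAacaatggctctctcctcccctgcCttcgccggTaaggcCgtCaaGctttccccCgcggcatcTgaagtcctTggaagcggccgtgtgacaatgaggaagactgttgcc
Windows of 100 bases, the length of 1 read, had an exact copy in another gene's transcript for 4.44% of LHCB1.1, 1.51% of LHCB1.2 and 4.07% of LHCB1.3. Most single reads could thus be placed, but the authors' assignment of reads between the copies could not be examined, and the levels of LHCB1.1, LHCB1.2 and LHCB1.3 are uncertain for that reason.

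LHCB1.1 stood at 849, 645, 237 and 128 FPKM in stages 1 to 4, lower at each step. LHCB1.2 stood at 1424, 620, 514 and 212 FPKM, with steps of similar fold from stage 1 to 2 (2.3-fold) and from stage 3 to 4 (2.43-fold) and little between. LHCB1.4 (AT2G34430, on chromosome 2) had another course. It stood at 87.4, 466, 63.8 and 72.8 FPKM, so the stage 2 library was high and the other 3 lay between 63.8 and 87.4 FPKM. Within the 4 LHCB1 loci, LHCB1.3 carried 82.7%, 84.2% and 83.9% of the summed FPKM in stages 2, 3 and 4.

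LHCB2.1 and LHCB2.2 shared 1 locus of 25237 bases in the tables and have a joint value, 956, 1172, 528 and 225 FPKM. This locus also spans 5 other gene models, so the joint value cannot be assigned to LHCB2.1 and LHCB2.2 alone. LHCB2.3 (AT3G27690) stood at 44.3, 160, 42.5 and 11.5 FPKM and was, like LHCB1.4, high in stage 2. For LHCB2.3, 36.3% of the windows of its transcript also lie in the transcript of the neighbouring gene AT3G27700. LHCB1.5 and LHCB3, the other genes of the major complex, had no row, as had LHCA4, PSAH1 and PSBR. The first 4 of these 5 genes overlap loci that the tables assign to neighbours.

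The minor antenna proteins of photosystem II (LHCB4, LHCB5 and LHCB6), which link the major complex to the core, were at 1014 FPKM or above in both young libraries, apart from LHCB4.3. LHCB5 stood at 2536, 1986, 905 and 475 FPKM, with the highest FPKM of any member in stage 1, level with PSAG. LHCB4.1 stood at 1548, 1429, 1137 and 588 FPKM and kept a higher level in stage 3 than LHCB4.2, which stood at 1014, 1241, 449 and 215 FPKM. LHCB4.3 was lower throughout, at 153, 84.3, 101 and 49.7 FPKM. LHCB6 was listed at 1195, 1072, 613 and 272 FPKM, but its locus spans 158364 bases and 49 other gene models, so its value cannot be assigned to LHCB6 alone.

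LHCB7 (AT1G76570), a rare member of the antenna family, went the other way. It stood at 4.07, 4.54, 11.4 and 12.9 FPKM in stages 1 to 4, with both old libraries above both young ones. Under the plain FPKM formula these values stand for 278, 481, 803 and 787 fragments.

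The antenna proteins of photosystem I form a belt of LHCA1 to LHCA4 on one side of the core, and their genes with a row had their highest values in stage 2. LHCA1 stood at 946, 1151, 762 and 473 FPKM, LHCA2 at 1232, 1550, 931 and 589 FPKM, and LHCA3 at 1244, 1545, 960 and 548 FPKM. These 3 courses were nearly parallel. LHCA5 and LHCA6, which attach photosystem I to the chloroplast NADH dehydrogenase-like complex, were far less abundant, LHCA5 at 82.3, 45.2, 37.4 and 48.7 FPKM and LHCA6 at 59.1, 51.9, 8.45 and 14.0 FPKM. Their lowest values fell in stage 3 and not in stage 4.

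All 11 photosystem I subunit loci were lowest in stage 4 as deposited. PSAG, which helps to hold the antenna belt, had the highest single value of the class and stood at 2534, 1581, 823 and 586 FPKM, behind PSAF in stage 2 and behind PSAL in stages 3 and 4. Of its transcript windows, 55.8% are shared with the overlapping gene AT1G55673. PSAK, its relative at the other end of the belt, stood at 611, 677, 355 and 248 FPKM. The genes for the docking side of the mobile antenna were PSAL at 2330, 1537, 882 and 609 FPKM, PSAH2 at 808, 709, 216 and 142 FPKM and PSAO at 1707, 1374, 626 and 424 FPKM. Of the 3, PSAH2 had the steepest course.

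For the subunits that bind the electron carrier plastocyanin, PSAF was listed at 1616, 1639, 759 and 501 FPKM and PSAN at 860, 765, 350 and 228 FPKM. For the ferredoxin side, PSAD1 was listed at 1262, 1008, 744 and 443 FPKM, PSAD2 at 504, 830, 573 and 297 FPKM, PSAE1 at 761, 825, 378 and 302 FPKM, and PSAE2 at 402, 456, 318 and 223 FPKM. PSAD2 had the clearest maximum in stage 2 among the photosystem I subunits.

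In photosystem II, 8 of 9 subunit loci were highest in stage 1 and all 9 were lowest in stage 4, again as deposited. PSBX, a small membrane subunit, stood at 2110, 1161, 730 and 562 FPKM, the highest of the class in stages 1 and 4 and behind PSBO1 in stages 2 and 3. The genes for the extrinsic proteins that stabilise the water-splitting site were PSBO1 at 1433, 1310, 881 and 540 FPKM, PSBO2 at 373, 327, 274 and 191 FPKM, PSBP1 at 1156, 1104, 704 and 411 FPKM, PSBQ1 at 1332, 968, 298 and 167 FPKM, and PSBQ2 at 951, 1135, 650 and 310 FPKM. PSBQ1 was thus well below PSBQ2 in both old libraries and above it in stage 1. PSBS, which triggers the harmless loss of excess light energy as heat, stood at 1209, 518, 385 and 259 FPKM, with its largest step between stages 1 and 2. The small subunits PSBW and PSBY stood at 1119, 926, 641 and 413 FPKM and at 476, 461, 333 and 143 FPKM.

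A member was called higher or lower if the difference of log2(FPKM + 1) reached 1 in size, which is 2-fold on that scale, and if the larger FPKM was 1 or more. From stage 1 to stage 2 few members passed in the values as deposited. Of 36 member loci above 0 in both libraries, 2 were higher, against 11.8% of 17988 loci of the series, and 2 were lower, against 15.3%. The higher ones were LHCB1.4 at +2.40 and LHCB2.3 at +1.83 on the log2(FPKM + 1) scale, and the lower ones LHCB1.2 at -1.20 and PSBS at -1.22. The median member differed by -0.14 as deposited, by 1.08 with the libraries scaled to equal FPKM sums and by 0.33 if only loci of at least 300 bases entered the equal sums. The median of all loci moved by 1.05 and 0.42 under these 2 scalings, and relative to it the members lay at -0.14 as deposited, 0.04 and -0.10. With equal FPKM sums, 23 members were higher and 0 lower, where 52.6% of all loci were higher.

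From stage 2 to stage 3 the antenna of photosystem II and, as deposited, the subunits of photosystem I held most of the lower members. Of 37 loci, 13 were lower, against 11.9% of 17533 loci of the series, and 1 (LHCB7, +1.16) was higher, against 13.1%. The lower loci were 6 of 12 of the PSII antenna, 5 of 11 PSI subunits, 1 of 5 of the PSI antenna and 1 of 9 PSII subunits. With equal FPKM sums 7 were lower, against 10.08% of all loci. They were 4 of the PSII antenna and 1 of each other class. With only loci of at least 300 bases in the sums 24 were lower, against 19.9% of all loci. By class they were 8, 8, 4 and 4 in the same order. The steepest were LHCB1.4 (-2.85), LHCA6 (-2.48), LHCB2.3 (-1.89), PSAH2 (-1.71) and PSBQ1 (-1.70), and at the other end LHCB4.3 differed by 0.26, PSBO2 by -0.26, LHCA5 and LHCB1.2 by -0.27 each. The median member differed by -0.80, with 35 of 37 loci below the median of all loci, and it stayed below 0 under each of the 4 other scalings, between -0.64 and -1.21.

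Between stages 3 and 4 most of the lower members, as deposited, were antenna genes of photosystem II. Of 37 loci, 9 were lower, against 6.42% of 16961 loci, and 0 were higher, against 5.52%. The lower ones were 7 of 12 PSII antenna loci and 2 of 9 PSII subunits, with 0 of 11 PSI subunits and 0 of 5 PSI antenna loci. LHCB2.3 (-1.79), LHCB1.2 (-1.27), the joint LHCB2.1/LHCB2.2 locus (-1.23), PSBY (-1.22) and LHCB6 (-1.17) had the largest differences, while LHCA6 (0.67), LHCA5 (0.37), LHCB1.4 (0.19) and LHCB7 (0.16) lay above 0. The median member differed by -0.69 as deposited and by 0.14 with equal FPKM sums, where the median of all loci moved by 0.76. Relative to all loci the members lay at -0.68 and -0.61 under these 2 scalings. With equal FPKM sums 1 member was lower, against 2.46% of all loci, and 3 were higher, against 28.4%. With the libraries scaled to 8 reference genes 2 members in place of 9 were lower, against 4.57% of all loci.

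Over the whole span from stage 1 to stage 4, 29 of 36 loci were lower, against 22.6% of 17802 loci, and 1 was higher, against 20.7%. The largest differences were those of PSBQ1 (-2.99 on the log2 scale, 7.98-fold lower in stage 4), LHCB1.2 (-2.74, 6.72-fold), LHCB1.1 (-2.72, 6.64-fold), PSAH2 (-2.50, 5.69-fold) and LHCB5 (-2.42, 5.34-fold). LHCB7 was the higher locus, at +1.45. The 6 loci that passed in neither direction were LHCA1 (just inside the limit, at 473 against 946 FPKM), PSBO2 (-0.97), PSAE2 (-0.85), PSAD2 (-0.76), LHCA5 (-0.75) and LHCB1.4 (-0.26).

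By class, 9 of 11 PSII antenna loci were lower in stage 4 than in stage 1, 3 of 5 PSI antenna loci, 9 of 11 PSI subunits and 8 of 9 PSII subunits. The class medians were -2.08, -1.06, -1.69 and -1.62, beside 0.01 for all loci. All 4 turned positive (0.15, 1.17, 0.55 and 0.62) with equal FPKM sums, where all loci moved by 1.92, and stayed below all loci by 1.77, 0.75, 1.37 and 1.3. In that scaling 0 members were lower, against 4.86% of all loci compared, and 9 were higher, against 76.2%. The share of higher among all called loci went from 47.8% to 94.0%. With only loci of at least 300 bases in the equal sums the class medians were -1.96, -0.94, -1.57 and -1.49. Scaled to the median ratio over all loci they were -2.11, -1.09, -1.71 and -1.64. Differences between classes were not tested, since there is 1 library per stage.

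**Figure D2:**
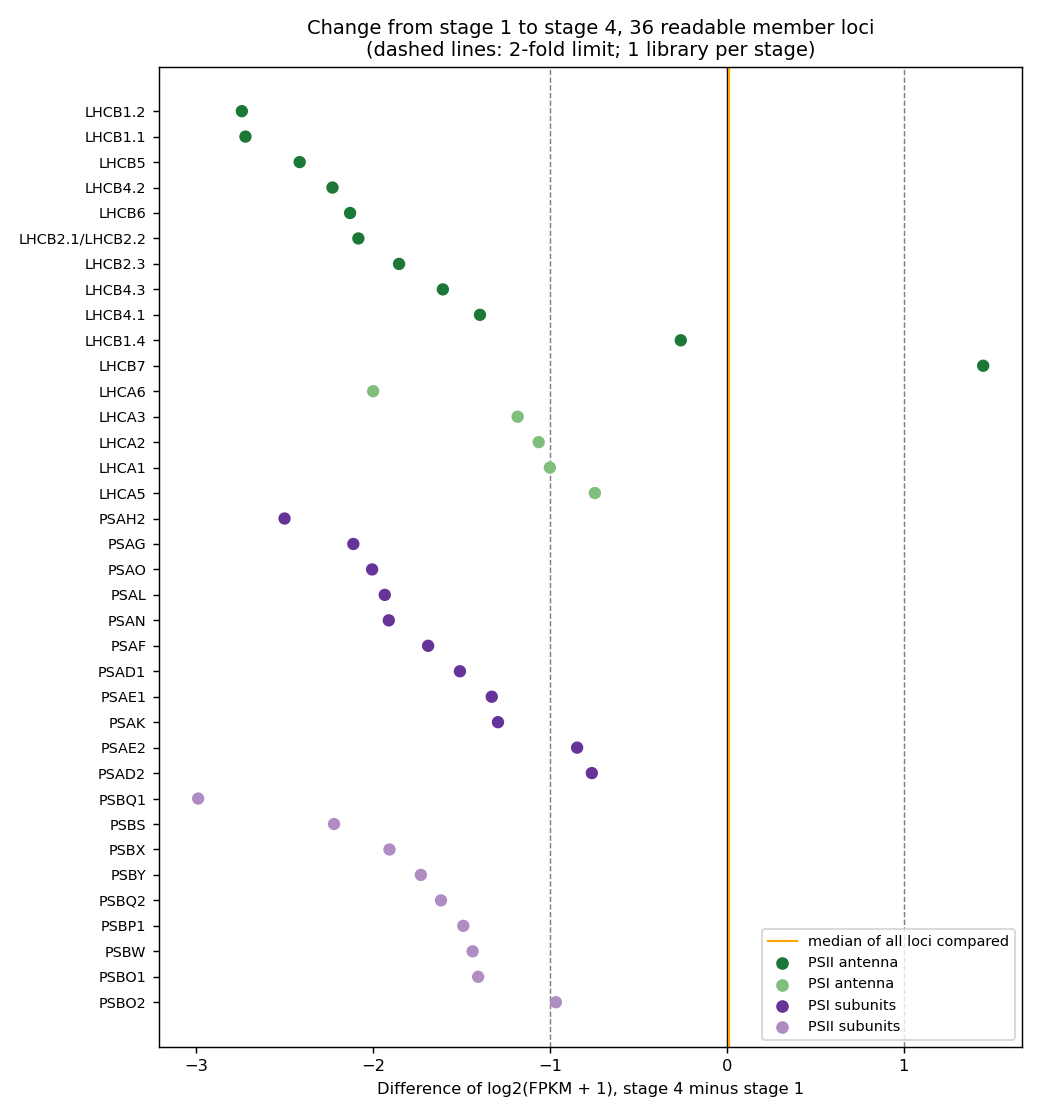
Difference of log2(FPKM + 1) between stage 4 and stage 1 as deposited for each of 36 loci above 0 in both libraries, coloured by class, with the 2-fold limits as dashed lines and the median of all loci as an orange line. 29 loci lie beyond the lower limit and LHCB7 beyond the upper one, while with equal FPKM sums the median of all members is 0.58 and that of all loci 1.92. Under the other scalings the median of all members lies between -1.49 and -1.67.

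Within each library the balance between the classes can be read without any scaling between libraries. Over the 36 loci, the PSII antenna held 26.6%, 27.3%, 25.3% and 20.7% of the summed member FPKM in stages 1 to 4, and the PSI antenna 9.65%, 13.3%, 14.8% and 15.3%. PSI subunits held 36.3%, 35.0%, 33.1% and 36.6%, and PSII subunits 27.5%, 24.3%, 26.9% and 27.4%. The 2 antennae thus went in opposite directions between the first and the last library while the subunits ended near their starting shares. The summed FPKM of the PSI antenna per PSI subunit sum was 0.266, 0.381, 0.448 and 0.418, and that of the PSII antenna per PSII subunit sum 0.966, 1.12, 0.940 and 0.755. The sum of PSI over that of PSII subunits was 1.32, 1.44, 1.23 and 1.34.

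These shares leave out LHCB1.3. With it, at 0 in stage 1 as listed, the PSII antenna held 42.0%, 39.7% and 33.7% in stages 2 to 4, and without any LHCB1 or LHCB2 locus 19.2%, 19.7%, 19.1% and 15.7% in stages 1 to 4. The last library had the lowest PSII antenna share in each of these versions, apart from the stage 1 value that lacks LHCB1.3.

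**Figure D3:**
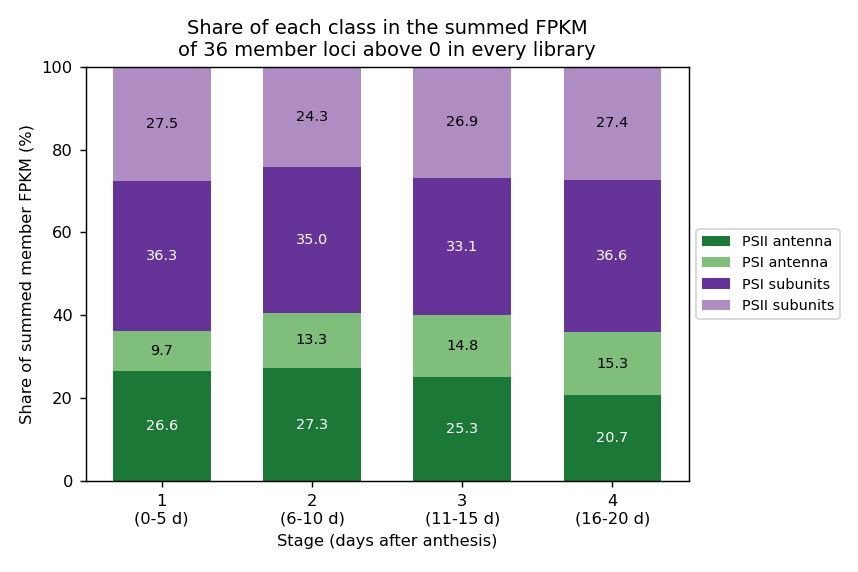
Share (percent) of each class in the summed FPKM of the 36 member loci above 0 in every library, 1 stacked bar per stage. The PSI antenna segment grows from 9.65% to 15.3% and the PSII antenna segment shrinks from 26.6% to 20.7%.

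Several subunits are encoded by a pair of gene copies, and the ratio of the copies within a library is likewise free of scaling between libraries. PSBQ1 over PSBQ2 was 1.4, 0.853, 0.458 and 0.539 in stages 1 to 4, so the leading copy changed after stage 1. PSBO1 led PSBO2 in every library, by 3.84, 4.00, 3.22 and 2.84. PSAD1 over PSAD2 was 2.50, 1.21, 1.3 and 1.49, with the stage 1 library apart from the others, and PSAE1 over PSAE2 was 1.90, 1.81, 1.19 and 1.36. In coding sequence these pairs were 80.0% (PSBQ), 83.8% (PSBO), 88.0% (PSAD) and 79.5% (PSAE) identical, and apart from PSAE1, with 24.0% of its windows shared with AT4G28755, their transcripts shared no window of 100 bases with another gene.

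Among the antenna genes, LHCB4.1 over LHCB4.2 was 1.53, 1.15, 2.53 and 2.73, higher in both old libraries, and LHCB4.2 over LHCB4.3 was 6.62, 14.7, 4.45 and 4.33. The joint LHCB2.1/LHCB2.2 value over LHCB2.3 was 21.6, 7.33, 12.4 and 19.5, lowest in stage 2. Since the joint locus spans other gene models, this ratio may not be that of the copies alone. LHCB1.1 over LHCB1.2 was 0.596, 1.04, 0.461 and 0.603. No ratio was formed for the PSAH pair or for LHCB1.4 over LHCB1.5, since 1 copy of each had no row.

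**Figure D4:**
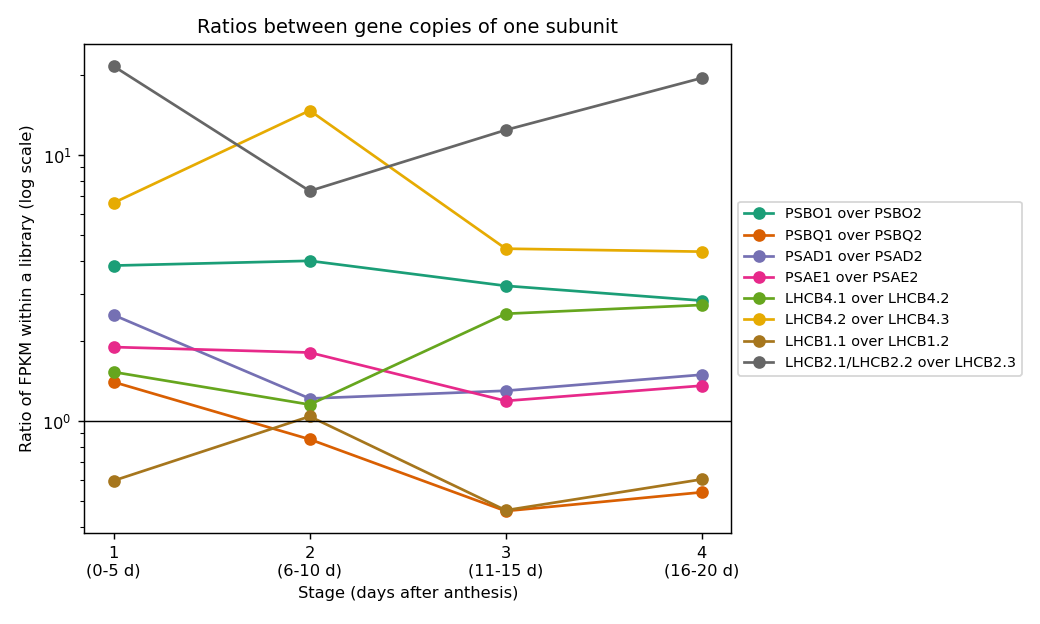
Ratio of FPKM between gene copies of 1 subunit in each library (log axis), 1 line per pair, with equality as a horizontal line. PSBQ1 over PSBQ2 crosses the line between stage 1 (1.4) and stage 2 (0.853), and the LHCB2 and LHCB4.2 lines turn at stage 2.

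The promoters of 5 members are shown because these genes have the highest level (LHCB1.3), the smallest difference between stages 1 and 4 among the minor antenna genes of photosystem II (LHCB4.1), the highest stage 1 level of the PSI antenna (LHCA3), the largest difference (PSBQ1) and the opposite course (LHCB7). Each is the stretch of 250 bases before the RefSeq gene start in TAIR10.1, at chr1:10477635-10477884 (plus strand), chr5:208616-208865 (plus strand), chr1:22699465-22699714 (plus strand), chr4:11334102-11334351 (plus strand) and chr1:28728748-28728997 (plus strand). Capitals mark matches, on either strand, to the G-box (CACGTG), the I-box (GATAAG), a motif bound by the GLK regulators (CCAATC), the CCA1 site (AAAAATCT or AACAATCT) and a TATA motif (TATAAA):
LHCB1.3: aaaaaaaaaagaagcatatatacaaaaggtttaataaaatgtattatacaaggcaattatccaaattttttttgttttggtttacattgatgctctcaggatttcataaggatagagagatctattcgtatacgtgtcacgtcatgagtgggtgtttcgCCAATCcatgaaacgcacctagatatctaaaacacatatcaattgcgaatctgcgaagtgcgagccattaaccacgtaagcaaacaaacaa
LHCB4.1: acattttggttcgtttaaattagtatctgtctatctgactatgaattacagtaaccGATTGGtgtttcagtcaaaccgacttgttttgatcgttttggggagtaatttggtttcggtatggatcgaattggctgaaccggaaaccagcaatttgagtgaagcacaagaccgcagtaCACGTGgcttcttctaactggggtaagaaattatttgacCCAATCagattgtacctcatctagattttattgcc
LHCA3: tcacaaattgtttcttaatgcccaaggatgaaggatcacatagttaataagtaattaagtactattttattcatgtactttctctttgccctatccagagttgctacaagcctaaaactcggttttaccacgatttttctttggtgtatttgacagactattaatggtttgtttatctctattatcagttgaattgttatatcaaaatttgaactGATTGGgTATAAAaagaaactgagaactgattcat
PSBQ1: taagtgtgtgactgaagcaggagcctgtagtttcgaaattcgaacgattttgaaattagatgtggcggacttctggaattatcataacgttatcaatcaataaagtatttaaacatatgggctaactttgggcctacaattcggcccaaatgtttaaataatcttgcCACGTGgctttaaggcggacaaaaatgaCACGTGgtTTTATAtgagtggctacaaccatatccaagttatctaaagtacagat
LHCB7: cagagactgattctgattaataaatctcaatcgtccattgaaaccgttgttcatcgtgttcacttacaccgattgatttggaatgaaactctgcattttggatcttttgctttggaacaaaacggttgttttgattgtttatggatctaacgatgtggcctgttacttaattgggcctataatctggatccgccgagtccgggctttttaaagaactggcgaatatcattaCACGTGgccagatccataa
PSBQ1 has 2 G-boxes and LHCB7, whose level had the opposite course, has 1. A match is only these letters in this window and shows no binding.

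Over all 43 genes, 9 of these windows (20.9%) hold a G-box, against 6.49% of 27443 genes, 9 (20.9%) an I-box, against 12.3%, and 11 (25.6%) the CCAATC motif, against 10.2%. The CCA1 site is in 14.0% against 8.38% and the TATA motif in 44.2% against 47.3%. Annotated starts differ between sources, so the 300 bases before the start codon were also searched, a stretch that can include untranslated sequence. There the G-box was in 18 genes (41.9%, against 6.28%), the I-box in 25 (58.1%, against 15.4%), the CCAATC motif in 19 (44.2%, against 13.8%), the CCA1 site in 8 (18.6%, against 10.7%) and the TATA motif in 16 (37.2%, against 47.1%). The G-box was in 7 of 10 PSII subunit genes and 3 of 15 PSII antenna genes there, but in 2 of 10 and 4 of 15 of the windows before the gene start, so the order of these classes depends on the window. The CCAATC motif was in 10 of 15 PSII antenna genes and 2 of 12 PSI subunit genes before the start codon, and in 7 and 0 before the gene start. These are counts of letters, with no test.

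Other genes of the light reactions and of chlorophyll metabolism are given as counts from lists, on the same call rule and with the directions of the values as deposited. All of the list medians below that lie under 0 from stage 1 to stage 4 turn positive with equal FPKM sums, as the members' do. They stay under 0 with only loci of at least 300 bases in the sums. Beside each list's counts from stage 1 to stage 4 stand 22.6% lower and 20.7% higher of all loci. Of 14 genes for electron transport and the ATP synthase, 7 were lower and 1 higher in stage 4 than in stage 1, with a median of -0.95. The ferredoxin gene FD2 stood at 2453, 1323, 583 and 392 FPKM and the plastocyanin gene PETE2 at 1930, 1218, 618 and 448 FPKM, the 2 genes of the list with the highest single values. The other ferredoxin gene, FD1, stood at 612, 265, 196 and 111 FPKM. PGRL1B, part of cyclic electron flow, was the 1 higher gene, at 17.0, 37.8, 35.7 and 44.6 FPKM.

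Chlorophyll synthesis genes were closest to the antenna of photosystem II in their median. Of 12 with a row, 9 were lower and 0 higher in stage 4 than in stage 1, with a median of -1.99, and 8 were already lower between stages 2 and 3. PORB, which makes chlorophyllide in the light, stood at 546, 379, 135 and 74.9 FPKM, and GUN4, an activator of magnesium chelatase, at 229, 218, 98.9 and 32.0 FPKM.

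Of 8 chlorophyll breakdown genes, 3 were lower and 0 higher between stages 1 and 2, 5 were higher and 0 lower between stages 2 and 3, and 0 passed in either direction between stages 3 and 4. From stage 1 to stage 4, 3 were higher and 0 lower (median 0.71). Of all loci, 15.3% were lower in the first of these comparisons, 13.1% higher in the second and 20.7% higher over the whole span. With equal FPKM sums 4 of the 8 genes were higher and 1 lower between stages 1 and 2. Of all loci, 52.6% were higher and 4.28% lower in that scaling. NYC1, which reduces chlorophyll b, stood at 169, 73.8, 266 and 222 FPKM, SGR1, which takes magnesium out of chlorophyll a, at 102, 29.9, 210 and 183 FPKM, and its relative SGR2 at 26.3, 4.61, 128 and 101 FPKM. PAO, which opens the chlorophyll ring, shares its locus with another gene and stood at 33.4, 32.7, 129 and 104 FPKM. In the values as deposited NYC1, SGR1 and SGR2 were lowest in stage 2, which did not hold for every gene of the list.

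Of 10 genes for the assembly and membrane insertion of the complexes, 2 were lower in stage 4 than in stage 1, a share near that of all loci. Of the same genes 0 were higher, against 20.7% of all loci. The list median was -0.77, and 8 of 10 genes lay below the median of all loci. PSB27, which accompanies photosystem II during repair, stood at 338, 254, 274 and 192 FPKM, and PSB28 at 192, 77.4, 103 and 103 FPKM. The genes called lower were that for cpSRP43 (AT2G47450), a carrier of antenna proteins, at 147, 89.6, 69.7 and 43.8 FPKM, and HCF136 at 112, 125, 68.6 and 39.7 FPKM. Of 7 relatives of the antenna proteins with a row, 3 were lower and 1 higher (median -0.33) from stage 1 to stage 4. SEP1 stood at 257, 84.8, 42.7 and 56.1 FPKM, LIL3.1 at 81.5, 56.4, 21.1 and 22.9 FPKM, LIL3.2 at 155, 137, 80.6 and 74.2 FPKM, and the light-stress gene ELIP2 at 4.94, 70.9, 47.2 and 18.9 FPKM. Its relative ELIP1 had another course, at 25.1, 9.44, 2.18 and 19.7 FPKM. ELIP1, OHP2 and LIL5 passed in neither direction from stage 1 to stage 4, so the course of this family was not shared. The kinase gene STN7 and the phosphatase gene TAP38, which move the mobile antenna between the photosystems, stood at 8.12, 20.5, 24.6 and 31.6 FPKM and at 48.7, 92.3, 99.6 and 92.6 FPKM, lowest in stage 1.

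Among 7 regulators of chloroplast genes, 2 were higher and 1 lower in stage 4 than in stage 1 (median 0.12), again near the shares of all loci. GLK1, an activator of antenna genes, stood at 15.3, 5.68, 5.03 and 2.27 FPKM, while its relative GLK2 stood at 30.6, 26.4, 46.1 and 16.8 FPKM. The plastid sigma factor SIG1 stood at 13.1, 35.4, 23.8 and 15.7 FPKM. SIG5, another sigma factor, stood at 2.04, 8.68, 13.8 and 22.8 FPKM, and HY5, a light-signalling factor that binds the G-box, at 7.50, 5.36, 12.5 and 19.7 FPKM. Of 8 reference genes, 7 passed in neither direction in the same comparison, and ACT2 was lower, at 382, 164, 108 and 89.1 FPKM. UBQ10 stood at 1015, 1198, 2117 and 1440 FPKM, and PP2AA3 at 41.9, 32.5, 33.7 and 28.5 FPKM.

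**Figure D5:**
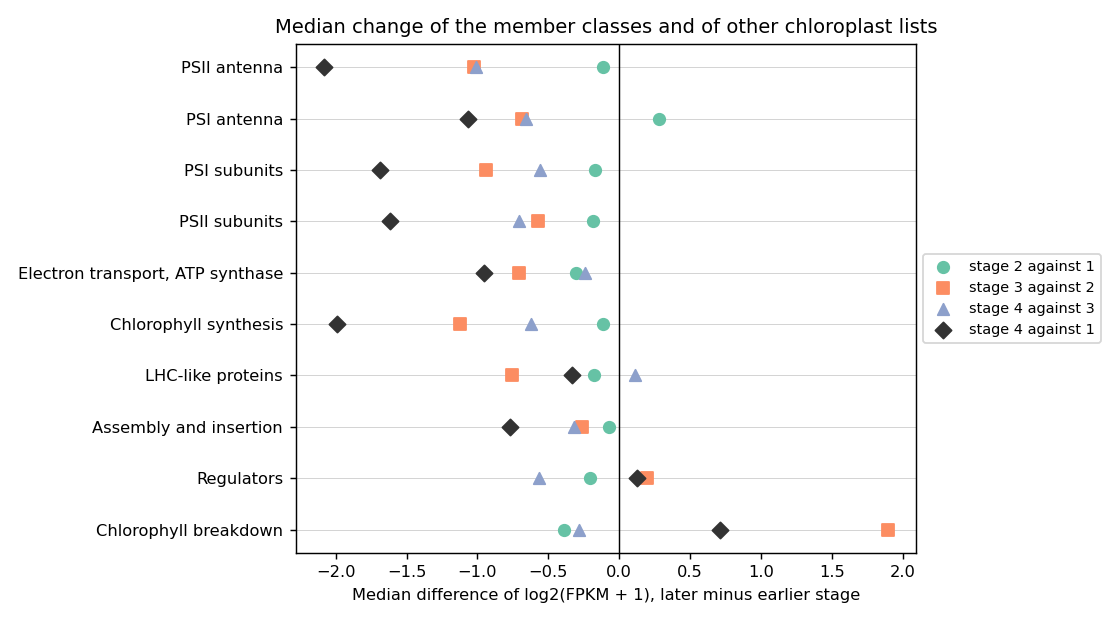
Median difference of log2(FPKM + 1), later minus earlier stage, as deposited, for the 4 member classes and 6 other chloroplast lists, 1 symbol per comparison. Chlorophyll breakdown lies at 1.90 for stage 3 against 2 while the 4 member classes and chlorophyll synthesis lie between -0.57 and -1.12. With equal FPKM sums every symbol for stage 4 against 1 moves to the right of 0. If only loci of at least 300 bases enter the sums, those left of 0 stay there.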

How the data were processed

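Total RNA of whole siliques was made into libraries with a kit that does not mark the strand and sequenced from both ends over 100 cycles, per the labels' protocols. Reads of overlapping and antisense genes therefore cannot be told apart. TopHat, Cufflinks, Cuffdiff and TAIR10 are named in the submitters' processing notes, and their versions are not given in the sources used here. Values are the FPKM deposited by the authors, with 1 value for each Cufflinks locus, and genes of a shared locus were counted once. Stages were taken from the sample labels, although the growth protocol states partly different days (stage 1 starts there at day 1).

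With 1 library per stage, no test was run and no p-value or SD exists. Calls required a difference of 1 in log2(FPKM + 1) and a higher FPKM of at least 1. Loci listed at 0 in either library were left out, since a 0 may be a failed estimate. On this scale the folds of weakly expressed genes come out too small. The fragment numbers came from values under 3.5 fragments at 2643 loci with transcripts over 1500 bases. Of these values, 69.1% to 78.2% fell within 0.2 fragments of a whole number, after 180 bases were taken off the transcript length, settings chosen on the same values. How many would do so by chance was not computed.

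Members and lists were chosen with earlier results of these data known. All 43 members could be named. From each other list the 2 most abundant genes and the 2 largest differences between stages 4 and 1 were named. PGRL1B, ELIP1, ELIP2, OHP2, LIL5 and HY5 were added after their values were seen. Coordinates of genes, promoters and coding starts, and all sequences, are from RefSeq's TAIR10.1, in which 28733 of 29153 single-gene loci were found by gene code and 28732 overlapped the gene of that name. All 43 members were found there. The alternatives comprised 4 rescalings, a 4-fold limit, pseudocounts of 0.1 and 5, an FPKM minimum of 5 or none, inclusion of loci at 0 and leaving out shared loci. Tools were Biopython 1.88, matplotlib 3.10.9, pandas 2.3.3, numpy 2.4.6 and Python 3.11.15.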

Additional observations from a re-analysis of the deposited data

How the results depend on the processing

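No paired analysis was possible because each stage is 1 library and no result comes from a test, and for the same reason no replicate could be left out. Main results stayed within their tolerances (counts within 1.5 times, medians within 0.1 log2, shares within 5 percentage points) with a pseudocount of 0.1, with no FPKM minimum or one of 5, with libraries scaled to the median ratio over all loci, and without loci that name several genes. The counts and medians also stayed within them without the member loci that span more than 10 kb (LHCB6 and the joint LHCB2 locus). The shares were not computed for that alternative, which was chosen after seeing the data.

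A pseudocount of 5 left 0 higher members both from stage 2 to 3 and from stage 1 to 4, since LHCB7 has low values. Including loci at 0 gave 2 higher members in stage 4 against 1, the added one being LHCB1.3. A 4-fold limit left 1 higher and 0 lower members from stage 1 to 2, 0 and 2 from stage 2 to 3, 0 lower from stage 3 to 4, and 0 higher and 11 lower from stage 1 to 4. No share of all loci is given under these alternatives, so these counts cannot be set against the rest of the series.

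Scaling to equal FPKM sums moved the most, because 1 short locus holds 78.3%, 63.1%, 45.0% and 6.65% of the sums in stages 1 to 4. Members higher became 23 in stage 2 against 1, 3 in stage 4 against 3 and 9 in stage 4 against 1. The shares of all loci that were higher there were 52.6%, 28.4% and 76.2%. Members lower became 0 in stage 2 against 1 and 7 in stage 3 against 2. They became 1 in stage 4 against 3 and 0 over the whole span. The shares of all loci that were lower there were 4.28%, 10.08%, 2.46% and 4.86%. The medians became 1.08, -0.64, 0.14 and 0.58 in the same order. Class medians turned to 1.09 (PSII antenna), 1.08 (PSI subunits) and 1.05 (PSII subunits) in stage 2 against 1, to 0.17 (PSI antenna), 0.27 (PSI subunits) and 0.12 (PSII subunits) in stage 4 against 3, and to 0.15 (PSII antenna), 1.17 (PSI antenna), 0.55 (PSI subunits) and 0.62 (PSII subunits) in stage 4 against 1. Loci below 0 that had not been called also turned and are not listed here. Of the single loci called lower as deposited, those that turned were LHCB1.2 (0.049) and PSBS (0.024) in stage 2 against 1. In stage 4 against 1 they were LHCB2.1/LHCB2.2 (0.15), LHCB2.3 (0.28), LHCB4.1 (0.84), LHCB4.2 (0.0043), LHCB4.3 (0.61), LHCB6 (0.10), LHCA2 (1.17), LHCA3 (1.05), LHCA6 (0.16), PSAD1 (0.73), PSAE1 (0.91), PSAF (0.55), PSAG (0.13), PSAK (0.94), PSAL (0.30), PSAN (0.32), PSAO (0.23), PSBO1 (0.83), PSBP1 (0.75), PSBQ2 (0.62), PSBS (0.014), PSBW (0.80), PSBX (0.33) and PSBY (0.50). Relative to the median of all loci, 34 of 36 members stayed lower in stage 4 against 1 under this scaling.

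With only loci of at least 300 bases in the equal sums, the medians were 0.33, -1.21 and -1.53 in stage 2 against 1, 3 against 2 and 4 against 1. In stage 2 against 1, 0 members were lower, against 9.45% of all loci, and the PSII antenna (0.35), PSI subunits (0.30) and PSII subunits (0.28) turned. In stage 3 against 2, 0 members were higher, against 9.23% of all loci, and 24 lower, against 19.9%. Scaling to the reference genes gave medians of -0.030, -1.01, -0.43 and -1.49 in the 4 comparisons. It left 0 higher members in stage 3 against 2 (11.0% of all loci) and 2 lower in stage 4 against 3 (4.57%). The cause of these 2 shifts was not tested.

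The PSII antenna share became 42.0%, 39.7% and 33.7% in stages 2 to 4 with LHCB1.3 included, and 19.2%, 19.7%, 19.1% and 15.7% in stages 1 to 4 without LHCB1 and LHCB2. Depth limits little here, since the lowest member value above 0 stood for 278 fragments, while the spread between fruits is unknown.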
